A study of Mus musculus with 12 samples.

Results

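The Wnt pathway genes described here are the 41 genes, of 15223 listed, that encode Wnt ligands (12), Frizzled receptors (7), the co-receptors Lrp5 and Lrp6, secreted inhibitors (5), the ligand-processing proteins Porcn and Wls, Dishevelled proteins and their antagonists (5), proteins of the destruction complex (4), beta-catenin with the factors Tcf7l1 and Tcf7l2, and the target Ccnd1. They were chosen by gene name alone. Other family members, such as Wif1, are not analysed here. The RNA came from c-Kit(+) cells of mouse hearts. All mice were C57BL6 animals of 8 weeks that carried c-KitCreERT2/mTeG and received tamoxifen at 0.5 mg a day for 14 days, so that Cre driven from c-Kit marked cells with eGFP. The groups were pre-MI (n = 3, collected before myocardial infarction), day 1 after infarction (n = 2, called a vehicle group in the labels although treatment came later), day 12 with vehicle (n = 3) and day 12 with Sfrp2 (n = 3), vehicle or Sfrp2 being given 2 days after infarction at a dose not given in the sources used here. One library of cardiomyocytes from sham mice has no replicate. Whether each library stands for its own animal is not given in the labels. The p-values below therefore rest on library-to-library spread, part of which may be technical.

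Wnt ligands are lipid-modified by Porcn, carried to the cell surface by Wls, and bound by Frizzled receptors together with Lrp5 or Lrp6. In the beta-catenin branch this recruits Dishevelled and holds back the destruction complex of Axin, Apc and Gsk3b, so that beta-catenin builds up and acts with Tcf and Lef factors on targets such as Axin2. Sfrp and Dkk family proteins act outside the cell, where Sfrp proteins bind ligands and Dkk proteins mostly act at the Lrp co-receptors. In the heart the pathway is low in most adult cells and is known to respond to injury.

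The promoters of 3 genes are shown because their genes carry the results below: Ctnnb1 and Fzd4 were lower after infarction, and Axin2 had no read before it. Each line is the 250 bases upstream of the start in RefSeq GRCm38.p6, 5′ to 3′ on the plus strand, in lower case, with any CCAAT box (CCAAT, or ATTGG on the other strand) or Tcf/Lef core (CTTTGA or TCAAAG) in capitals. The regions are chr9:120933150-120933399, chr7:89404116-89404365 and chr11:108920099-108920348 in that order.
Ctnnb1: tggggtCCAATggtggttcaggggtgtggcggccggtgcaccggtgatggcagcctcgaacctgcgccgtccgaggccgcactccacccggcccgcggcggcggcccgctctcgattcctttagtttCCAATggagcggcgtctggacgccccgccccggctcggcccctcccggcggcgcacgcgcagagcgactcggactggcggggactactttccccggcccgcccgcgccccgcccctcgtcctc
Fzd4: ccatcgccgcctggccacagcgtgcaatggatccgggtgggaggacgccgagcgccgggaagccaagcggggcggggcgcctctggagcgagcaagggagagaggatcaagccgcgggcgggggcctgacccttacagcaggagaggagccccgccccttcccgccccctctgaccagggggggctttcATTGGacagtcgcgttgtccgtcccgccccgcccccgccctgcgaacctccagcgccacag
Axin2: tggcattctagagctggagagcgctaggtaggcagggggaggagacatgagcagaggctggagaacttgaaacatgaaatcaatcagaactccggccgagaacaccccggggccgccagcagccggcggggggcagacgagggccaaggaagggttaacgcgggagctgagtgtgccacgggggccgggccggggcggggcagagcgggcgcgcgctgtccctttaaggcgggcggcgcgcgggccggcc
The Ctnnb1 window, the upstream one of 2 listed starts, held 2 CCAAT boxes, the Fzd4 window held 1 on the opposite strand, and the Axin2 window held neither motif. The window of the other listed Ctnnb1 start, not shown, also held neither motif. Promoters were matched for 28 of the 41 genes (33 windows). CTTTGA occurred in 15.2% of these windows against 13.8% of all 32851 RefSeq windows of this length, and CCAAT in 33.3% against 33.9%, so both shares were close to those of promoters at large. The member windows had a median GC content of 69.2% against 52.4% for all windows.

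The libraries differed in depth and in background. Reads recovered over the listed genes numbered 190259 to 3570993 per library, and both mitochondrial rRNA genes took 82.6% to 86.7% of them pre-MI but 2.01% in day 12 vehicle replicate 3. Reads of olfactory, vomeronasal and taste receptor genes, whose main known role is in sensory cells, numbered 5 to 10 per library before infarction and 70 to 757 in the later c-Kit(+) libraries. The 95th percentile of their value per exon kb in a library (96 of 99 genes with a length) is called the background level here. It was 0, 0 and 0.0471 pre-MI, 1.19 and 4.52 at day 1, then 2.39, 0.541 and 17.9 across the vehicle libraries, and 1.60, 2.48 and 2.28 with Sfrp2. Only genes with at least 10 reads in some library are listed, so the sensory genes kept are those with the most background. Kit itself was at 5.68 to 18.0 pre-MI, 3.44 and 5.65 at day 1, 8.52 to 33.7 with vehicle and 6.34 to 13.8 with Sfrp2 as a normalized value, and at 0 in the cardiomyocyte library. In the latter the 9 cardiomyocyte markers summed to 193, with 2 of them at 0, against 2049 to 3349 in the pre-MI c-Kit(+) libraries.

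Before infarction the intracellular members were the best detected and the ligands were almost undetected. Per exon kb, Ctnnb1 (beta-catenin) had the highest pre-MI level of all members (mean 86.1), followed by Ccnd1 (18.3) and Gsk3b (15.8), then Lrp5 (5.23), Dvl2 (5.14) and Fzd4 (4.94). These last 3 did not differ beyond their spread. In each pre-MI library the 12 ligands together held only 2 or 3 reads, and 8 of them had none in any. A total of 12 members, these 8 ligands with Fzd2, Dkk2, Nkd1 and Axin2, had 0 reads in all 3 pre-MI libraries, where 25.0% of all listed genes had none. A total of 15 members had a pre-MI level above background in every library, which at such low background levels mostly means a read in every library; 48.9% of all genes did. After infarction 4 members lay above background at day 1, 1 with vehicle and 5 with Sfrp2. At day 1 they were Lrp5, Gsk3b, Ctnnb1 and Ccnd1, with vehicle Lrp5, and with Sfrp2 Lrp5, Ctnnb1, Gsk3b, Dkk3 and Sfrp2. The share of all genes above it was 9.25%, 0.890% and 9.40% in these groups. Without day 1 replicate 2 the day 1 count was 13, and the vehicle count was 9 without replicate 3 and 2 without replicate 1. No ligand was above background in every library of any group, although in single libraries 1 ligand was in day 1 replicate 1, and 1, 4 and 1 were in vehicle replicates 1, 2 and 3.

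**Figure D1:**
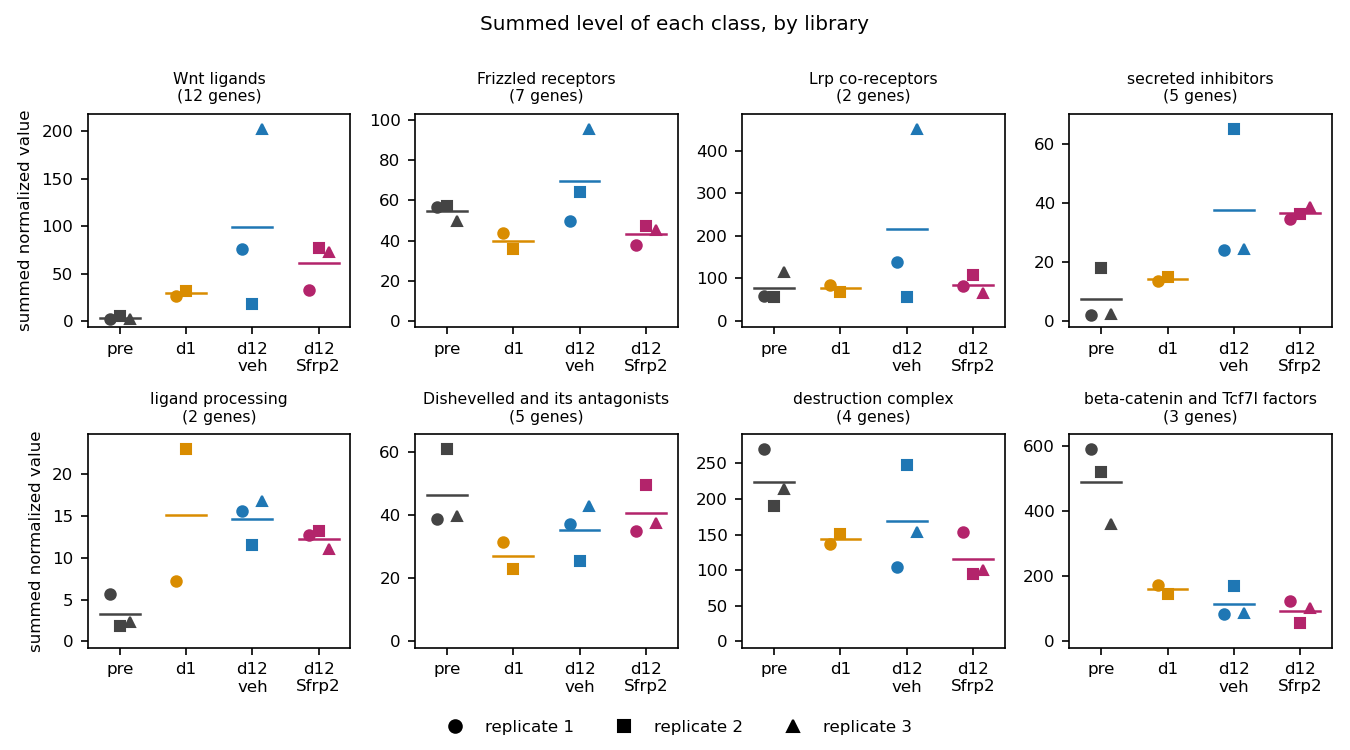
Summed normalized value of each class (y axis, from 0, scale differing by panel) in each of the 11 c-Kit(+) libraries, by group, with lines at the group means. Beta-catenin with Tcf7l1 and Tcf7l2 was at 360 to 589 before infarction and at 55.9 to 173 in all later libraries, while the ligands were at 1.89 to 5.38 before infarction and at 18.3 to 202 later.

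Summed over a class, mean normalized values were lower after infarction for beta-catenin with the Tcf7l factors and higher for ligands and inhibitors. These sums carry no test, and a few abundant genes can set them. Ctnnb1 alone had a pre-MI mean of 447, while Tcf7l2 had means of 35.0 pre-MI and 44.2 with vehicle. Beta-catenin and the Tcf7l factors summed to 490 ± 118 (SD, n = 3) pre-MI, 160 ± 19.5 (n = 2) at day 1, 114 ± 49.1 (n = 3) with vehicle and 93.4 ± 34.1 (n = 3) with Sfrp2, with every later library below every pre-MI one. The destruction complex summed to 224 ± 40.9, 144 ± 9.36, 168 ± 72.9 and 116 ± 32.6 in the same order, where vehicle replicate 2 (248) overlapped the pre-MI range. Within it Axin1 and Axin2 went the other way with Sfrp2, with means of 8.50 and 7.91 against 3.12 and 0 pre-MI. Dishevelled proteins and their antagonists summed to 46.5 ± 12.5, 27.2 ± 6.01, 35.3 ± 8.90 and 40.8 ± 7.70, overlapping the pre-MI range with vehicle and with Sfrp2. Frizzled receptors, at 54.7 ± 4.10, 39.6 ± 5.64, 69.7 ± 23.3 and 43.5 ± 4.81, lay below the pre-MI range at day 1 and with Sfrp2 and overlapped it with vehicle. Ligands summed to 3.18 ± 1.91, 29.4 ± 3.90, 98.8 ± 93.9 and 61.2 ± 24.4, and secreted inhibitors to 7.36 ± 9.15, 14.3 ± 0.855, 37.9 ± 23.6 and 36.6 ± 2.17. Among the day 12 vehicle libraries the ligand sum per exon kb was lowest in replicate 2 (4.24) and highest in replicate 3, where the background level was lowest (0.541) and highest (17.9) too. The part of background in the ligand values was not tested beyond the subtraction given below.

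The first comparison, day 1 against pre-MI, asks how the pathway stood in c-Kit(+) cells 1 day after infarction. In all, 11 of 41 members passed limma with Benjamini-Hochberg adjustment over all genes, where 23.9% of all genes did. There were 8 higher, among 21.3% of all genes called higher, and 3 lower (Ctnnb1, Fzd4 and Apc), among 2.65% called lower. The 3 falls were in members that were well detected before infarction, whereas 7 of the 8 rises were at means under 5 and each had 0 reads pre-MI. With each library centred on its median, the split was 1 higher and 8 lower. This centring moved the median gene from 0.70 to -0.37 on the log2(value + 1) scale, and the share of all genes in that split is not given here. Without regard to the test, 13 members were higher in both day 1 libraries than in any pre-MI library (39.6% of all genes) and 6 were lower (10.4%). The authors' deposited table called 0 members here, among 2.05% of all genes.

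Ctnnb1 was at normalized values of 553, 473 and 315 pre-MI and at 135 and 116 at day 1. Both day 1 libraries lay far below all pre-MI libraries, a fall by 1.79 on the log2 scale (SE 0.280, limma adjusted p = 0.0132) that lost the threshold in 6 of 16 alternatives. In bulk RNA, fewer cells of a type and less RNA per cell cannot be told apart. Fzd4, a Frizzled receptor known for its role in vessels, was at 30.3, 34.1 and 35.2 pre-MI and at 12.9 and 10.3 at day 1. It fell by 1.44 (SE 0.211, limma adjusted p = 0.0110), again without overlap. Apc, the scaffold of the destruction complex, was at 71.9, 61.0 and 63.6 and then at 41.9 and 40.2, a fall by 0.66 (SE 0.159, limma adjusted p = 0.0436) that lost the threshold in 13 of 16 alternatives. Dvl2, Gsk3b and Ccnd1 had log2 differences of -1.25, -0.68 and -0.59 and did not pass (adjusted p = 0.0697, 0.110 and 0.0663 by limma), although no day 1 library overlapped a pre-MI one in any of them.

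**Figure D2:**
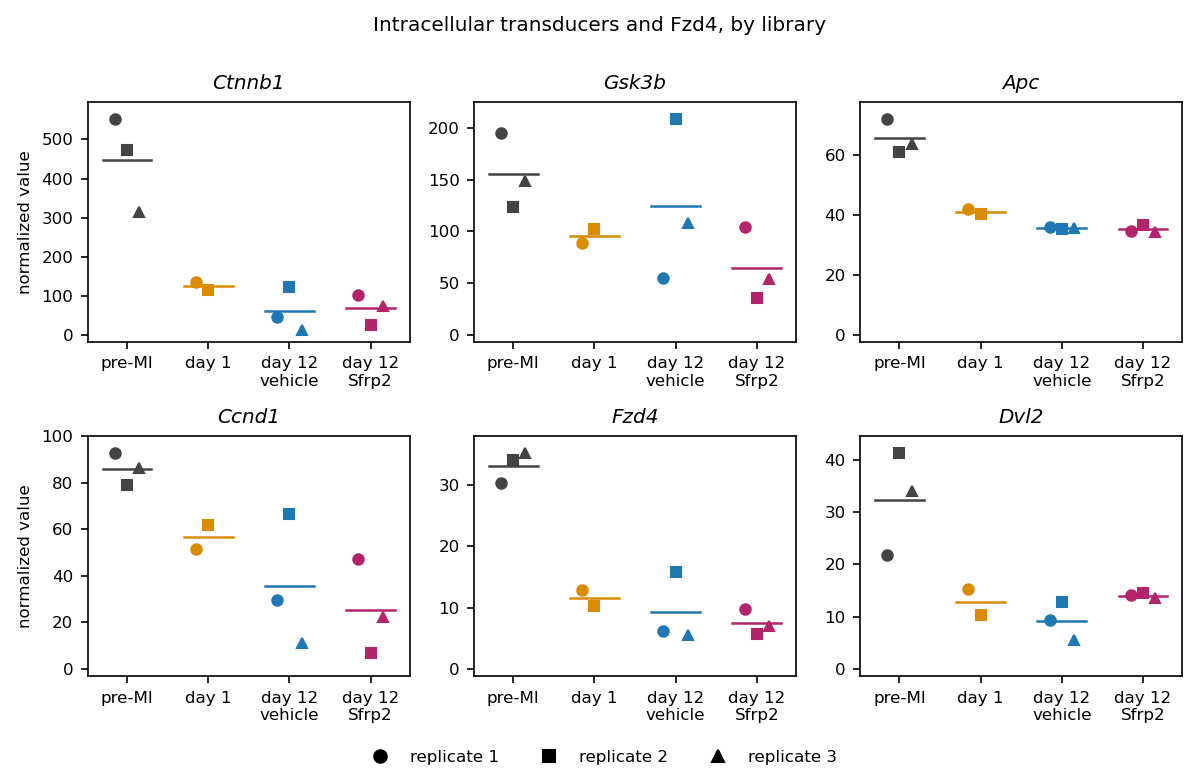
Normalized value (y axis, from 0) of 5 intracellular members and the receptor gene Fzd4 in each of the 11 c-Kit(+) libraries, by group, with lines at group means. Ctnnb1, Apc, Ccnd1, Fzd4 and Dvl2 show no later library within the pre-MI range, while Gsk3b in vehicle replicate 2 (209) lies above the highest pre-MI library (195).

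The members that rose at day 1 were the ligands Wnt2b, Wnt4, Wnt7b and Wnt8b, the receptor Fzd2, the inhibitor Dkk2, and Nkd1 and Axin2, both feedback antagonists of the pathway. Axin2 was at 0 in all 3 pre-MI libraries and at 4.03 and 4.59 at day 1, from 5 and 4 reads. Its fitted log2 difference was 2.41 (SE 0.232, limma adjusted p = 0.00572), but the day 1 mean of 4.31 lay below 5.38, which is what 3 reads are worth in the pre-MI library of least depth, so no fold is given. Wnt4 was at 4.03 and 6.89 at day 1, and its mean was at least 1.02-fold higher than that floor. The other 6 genes with 0 reads pre-MI had day 1 means of 0.977 to 4.48, all under the floor. With the median background per exon kb subtracted, 2 of the 8 rises (Wnt2b and Wnt4) and 2 of the 3 falls (Ctnnb1 and Fzd4) passed. That median was 0 in every pre-MI library, so subtraction could only lower the day 1 values, which favours falls.

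**Figure D3:**
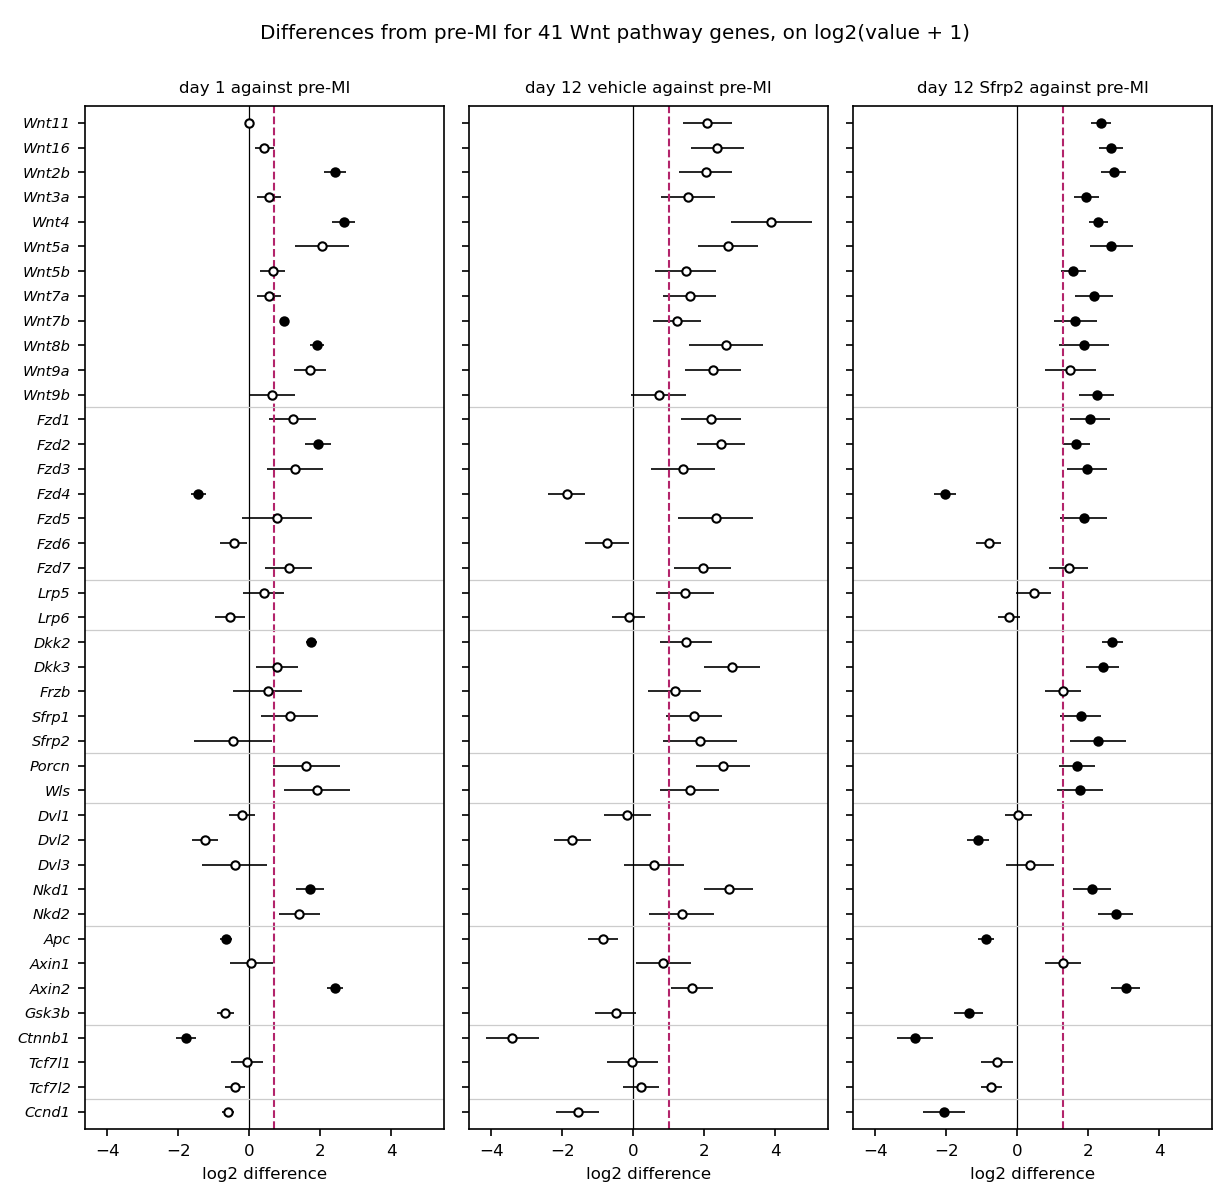
Log2 difference from pre-MI on log2(value + 1) (x axis) with its standard error for all 41 members in 3 comparisons, ordered by class and separated by grey lines; filled points passed limma at an adjusted p under 0.05, and the dashed line is the median of all genes (0.70, 1.00 and 1.27). Ctnnb1, Fzd4, Dvl2, Apc and Ccnd1 lie left of 0 in all 3 panels, and every ligand lies at or right of 0, many of them close to the dashed line; the 3 panels share the pre-MI libraries.

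The second comparison, day 12 vehicle against pre-MI, asks how the cells stood 12 days after infarction without Sfrp2. No member passed limma (0% of all genes did), while 18 members had an unadjusted p under 0.05, 14 of them higher and 4 lower. Of all genes 33.8% had such a p in either direction. edgeR called 6 members and DESeq2 2, and the authors' deposited table gave 15 (12 higher, among 23.1% of all genes, and 3 lower, among 2.65%). Without vehicle replicate 2 limma called 19 members. The shares of all genes called by edgeR, by DESeq2 and without this library are not given here, so those counts describe the members only. In all, 15 members were higher in all 3 vehicle libraries than in any pre-MI library (26.3% of all genes) and 5 were lower (7.08%).

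The vehicle libraries lay on the same side of pre-MI as day 1 for Ctnnb1, Fzd4, Dvl2, Apc and Ccnd1. Ctnnb1 was at 45.2, 124 and 11.2, all below the pre-MI range, and the log2 difference was -3.40 with SE 0.757, which did not pass limma (adjusted p = 0.0700). Fzd4 was at 6.23, 15.8 and 5.61 and Dvl2 at 9.34, 12.8 and 5.61, both without overlap with pre-MI, with limma adjusted p of 0.0745 and 0.0804. Apc was at 35.8, 35.3 and 35.5, an SD of 0.255 around 35.6. Ccnd1 varied more, at 29.6, 66.4 and 11.2, still below the pre-MI range of 78.9 to 92.7. Gsk3b was at 55.3, 209 and 108, which spans the pre-MI range. In the authors' deposited table Ctnnb1, Fzd4 and Dvl2 had log2 fold changes of -2.87, -1.76 and -1.71 with adjusted p of 0.00262, 0.0227 and 0.0210.

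Extracellular members were uneven between the vehicle libraries. Wnt4 was at 6.23, 3.04 and 108, the last from 58 reads in replicate 3, the library with the highest background level. Wnt5a, the ligand with the highest mean over the 11 libraries apart from Wnt4 and best known for beta-catenin-independent signalling, was at 22.6, 4.87 and 16.8 against 0, 3.59 and 1.14 pre-MI. Both ligands were without overlap with pre-MI, and neither passed limma (adjusted p = 0.0769 and 0.0830). Lrp5 was at 114, 37.7 and 424 against 39.7, 23.3 and 89.7 pre-MI, so that the groups overlapped. By contrast, the secreted inhibitors Sfrp1, Sfrp2 and Dkk3 were highest in replicate 2, the library with the lowest background, unlike Dkk2 and Frzb. There Sfrp2 was at 19.5, Sfrp1 at 18.3 and Dkk3 at 22.5, which per exon kb were far above its background level, with Sfrp2 at 16.7 times and Dkk3 at 12.4 times. In replicates 1 and 3 these 3 genes were at 3.11 to 9.35. The 9 fibroblast markers summed to 222, 798 and 89.8 in replicates 1, 2 and 3, and to 126 to 183 pre-MI. The macrophage, mesothelial, endothelial, cardiomyocyte and smooth muscle lists also summed highest in replicate 2 (macrophage 138, 1166 and 157, endothelial 938, 1911 and 176). The lymphocyte and mast cell lists summed highest in replicate 3. The part of any of these cells in the inhibitor values was not tested.

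**Figure D4:**
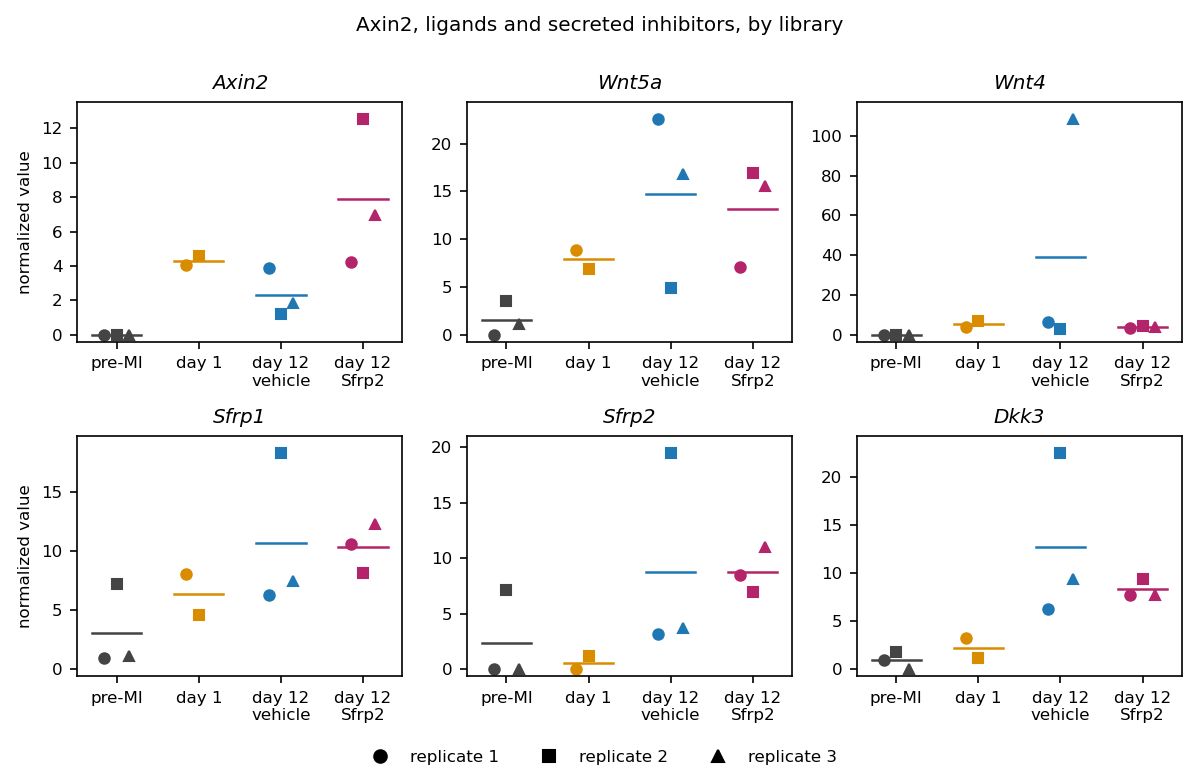
Normalized value (y axis, from 0, scale differing by panel) of Axin2, 2 ligands and 3 secreted inhibitors in each of the 11 c-Kit(+) libraries, by group, with lines at group means. Axin2 and Wnt4 are at 0 in all pre-MI libraries, vehicle replicate 3 alone sets the vehicle mean of Wnt4 (39.2), and vehicle replicate 2 is highest for Sfrp1, Sfrp2 and Dkk3.

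The third comparison, day 12 Sfrp2 against pre-MI, gave the most calls. Here 30 of 41 members passed limma, where 57.6% of all genes did. Of these 24 were higher, among 48.8% of all genes called higher, and 6 were lower (Ctnnb1, Fzd4, Apc, Ccnd1, Dvl2 and Gsk3b), among 8.82% called lower. Centred on the library medians the split was 6 higher and 11 lower, with TMM scaling 18 and 8, and with DESeq2 13 and 6. The median gene stood at a log2 difference of -0.20, 1.06 and 1.54 in these fits. Their shares of all genes called are not given here. Without Sfrp2 replicate 2 the count was 18, and without replicate 3 it was 16. There were 22 members higher in every Sfrp2 library than in any pre-MI library (51.4% of all genes) and 8 lower (11.5%). The authors' deposited table gave 15, among 33.5% of all genes. This comparison shares the pre-MI libraries with the other comparisons.

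The 6 lower members were the same 3 that fell at day 1, with Ccnd1, Dvl2 and Gsk3b in addition. Ctnnb1 was at 102, 25.7 and 74.4 with Sfrp2, all below the pre-MI range, and fell by 2.88 on the log2 scale (SE 0.494, limma adjusted p = 0.00148). Fzd4 was at 9.86, 5.65 and 6.95 and fell by 2.04 (SE 0.303, limma adjusted p = 0.000748). Ctnnb1 and Fzd4 passed in all 17 alternatives to this fit. Ccnd1, cyclin D1, was at 47.2, 6.91 and 22.5 and fell by 2.06 (SE 0.578, limma adjusted p = 0.0149), with replicate 1 well above replicate 2. Dvl2, a Dishevelled protein that relays the receptor signal, was at 14.1, 14.4 and 13.5 and fell by 1.11 (SE 0.312, limma adjusted p = 0.0154). Gsk3b, the kinase that marks beta-catenin for breakdown, was at 104, 35.8 and 53.6 and fell by 1.37 (SE 0.401, limma adjusted p = 0.0180). Apc was at 34.5, 36.4 and 34.3, a fall by 0.88 (SE 0.236, limma adjusted p = 0.0123). All 6 were without overlap with the pre-MI libraries, and all 6 passed with background subtracted and with each library centred on its median. The median background subtracted was 0 in every pre-MI library, so subtraction could only lower the Sfrp2 values. Centring likewise moved the median gene from 1.27 to -0.20. Both settings favour falls, so these passes are no further support for them. Gsk3b lost the threshold without pre-MI replicate 1 and without Sfrp2 replicate 2 or 3, Dvl2 without pre-MI replicate 2 or Sfrp2 replicate 3, and Ccnd1 without Sfrp2 replicate 3. Dvl2 and Apc also lost it in the fit of all 11 libraries (limma adjusted p = 0.0563 and 0.0585).

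Axin2 was at 4.23, 12.6 and 6.95 with Sfrp2, from 6, 20 and 17 reads, against 0 reads in every pre-MI library. All 3 libraries lay above pre-MI, and the mean of 7.91 ± 4.25 (SD, n = 3) was at least 1.47-fold higher than the floor of 5.38. The fitted log2 difference was 3.05 (SE 0.418, limma adjusted p = 0.000530), against 1.27 for the median gene, and it passed in all 16 alternatives, background subtraction included. Per exon kb, Axin2 stood at 0.48, 0.92 and 0.55 times the background level of its libraries, so it was not above background in any of them. Axin2 reached the 10 reads needed for listing only in Sfrp2 replicates 2 and 3, so its listing already required a high value with Sfrp2. Axin1, its relative, did not pass (1.28, SE 0.506, limma adjusted p = 0.0575).

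Of the secreted inhibitors 4 of 5 rose with Sfrp2 against pre-MI, and Frzb did not pass, where 48.8% of all genes rose. Dkk2 and Frzb reached 10 reads only with Sfrp2. The Sfrp2 gene itself, on chromosome 3 at 83766321 to 83774316 (GRCm38), was at 8.45, 6.91 and 11.04 against 0, 7.17 and 0 pre-MI, where replicate 2 overlapped (log2 difference 2.26, SE 0.791, limma adjusted p = 0.0375). Dkk3 was at 7.75, 9.42 and 7.77 against 0.946, 1.79 and 0, with no overlap, a rise by 2.40 (SE 0.460, limma adjusted p = 0.00253). Both lay above background in every Sfrp2 library. Sfrp1 was at 10.6, 8.16 and 12.3 against 0.946, 7.17 and 1.14, a rise by 1.79 (SE 0.579, limma adjusted p = 0.0275) whose values were not above background in replicate 2. Sfrp1 and Sfrp2 each lost the threshold in 9 of 16 alternatives and Dkk3 in 1. Of the fibroblast markers 4 of 9 rose (Col1a2, Col3a1, Postn and Dcn), and the list summed to 311 to 355 with Sfrp2.

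Of 12 ligands 11 rose with Sfrp2 against pre-MI, and Wnt9a did not pass, where 48.8% of all genes rose. However, 8 of the 12 ligands reached the 10 reads needed for listing only in Sfrp2 libraries, as did 13 of 41 members and 23.2% of all genes, and none of the 12 did so pre-MI. These genes had to be high with Sfrp2 to be listed, so the count and the median of the ligands are descriptions and support nothing. Wnt5a was at 7.04, 16.9 and 15.5, a rise by 2.64 (SE 0.610, limma adjusted p = 0.00622), and Wnt4 at 3.52, 4.39 and 3.68, a fitted rise by 2.28 (SE 0.269, limma adjusted p = 0.000373). Every ligand other than Wnt5a had a mean under 8 with Sfrp2. The ligands' median log2 difference was 2.19 against 1.27 for all genes. With genes at 0 in every pre-MI library set to the floor there, and to no change where they stayed under it, the median was 0 for the ligands, 0.03 for all members and 0.29 for all genes. With background subtracted 10 members were higher, 6 of them ligands (Wnt2b, Wnt4, Wnt5a, Wnt9b, Wnt11 and Wnt16) with Axin2, Dkk2, Dkk3 and Nkd2.

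Of the other receptors Fzd1, Fzd2, Fzd3 and Fzd5 rose with Sfrp2 at means of 2.44 to 10.1, and Fzd6 and Fzd7 did not pass, where 48.8% of all genes rose. Fzd5 was at 10.6, 11.3 and 8.59 against 0, 5.38 and 3.41 pre-MI, and lost the threshold in 9 of 16 alternatives. Fzd6, second to Fzd4 among the Frizzled receptors in pre-MI normalized value, was at 7.04, 8.79 and 8.99 against 20.8, 16.1 and 10.2, with limma adjusted p = 0.0762. The co-receptors did not pass, with Lrp5 at 55.6, 89.1 and 45.0 and Lrp6 at 26.1, 18.2 and 20.9, the latter within its pre-MI range of 18.9 to 34.1 except in replicate 2. Porcn and Wls rose at means of 3.74 and 8.56 and lost the threshold in 9 and 11 of 16 alternatives. Tcf7l2, a factor through which beta-catenin acts on genes, was at 16.9, 25.7 and 19.2 against 26.5, 37.6 and 40.9 pre-MI and did not pass (limma adjusted p = 0.0652). Dvl3 was at 5.63, 10.7 and 7.36 against 11.4, 10.8 and 1.14, with overlap.

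**Figure D5:**
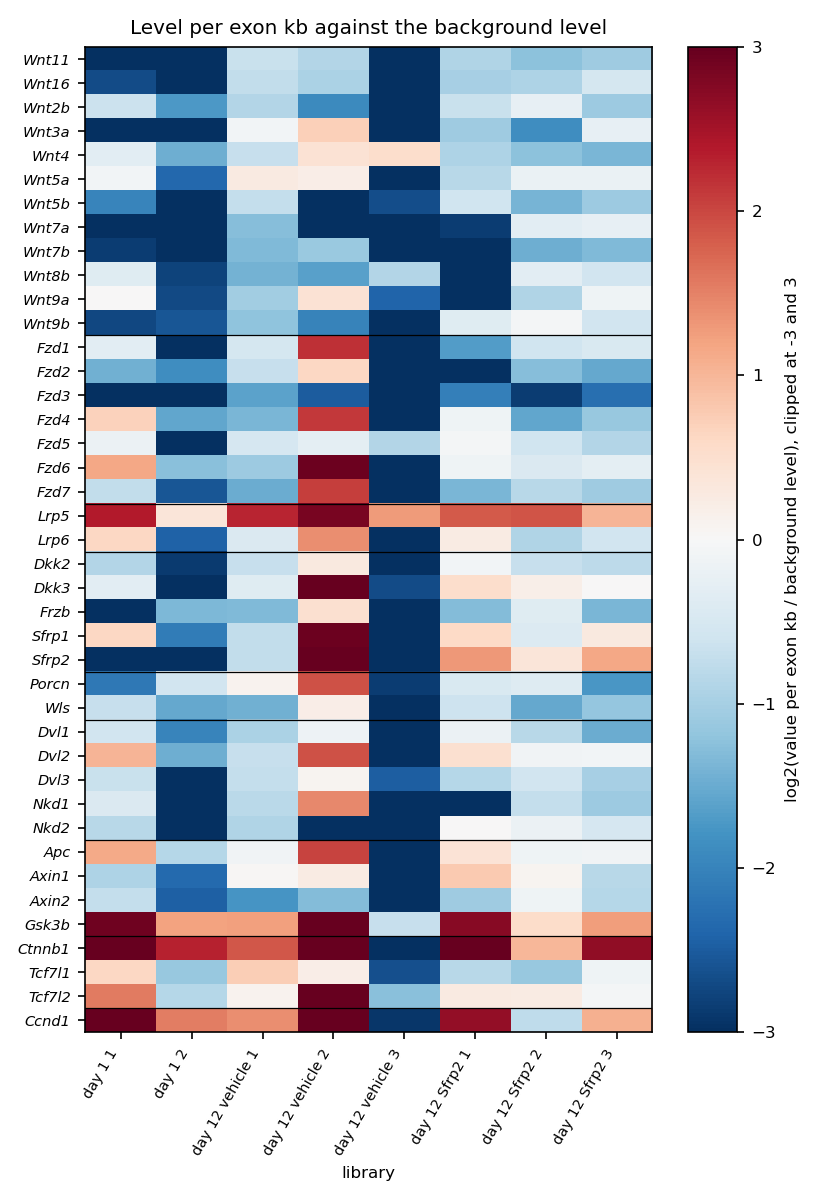
Value per exon kb divided by the background level of the same library, on a log2 colour scale clipped at -3 and 3, for 41 members (rows, by class) in the 8 c-Kit(+) libraries after infarction. Lrp5 is red in all 8 and Ctnnb1 in all but vehicle replicate 3, vehicle replicate 2 has 28 members above its background level, and the ligands are mostly blue.

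The fourth comparison, day 12 Sfrp2 against day 12 vehicle, asks whether Sfrp2 treatment changed the pathway. No member passed limma (0% of all genes did), and edgeR, DESeq2 and the authors' deposited table each called 0. By limma no member had an unadjusted p under 0.05, where 1.44% of all genes did. In the authors' table Wnt4, Lrp5 and Tcf7l2 did, with log2 fold changes of -3.31, -1.59 and -1.07 (unadjusted Wald p = 0.00228, 0.0320 and 0.0372). Each of these genes was highest in vehicle replicate 3 among the day 12 libraries. The median log2 difference over the members was -0.02 against 0.22 for all genes, and the standard errors of single members were 0.402 to 1.18. Among members, Axin2, Dvl2, Nkd2 and Wnt9b were higher in all 3 Sfrp2 libraries than in any vehicle library, as were 4.93% of all genes. Of these members, Axin2, Nkd2 and Wnt9b reached the reads needed for listing only in Sfrp2 libraries. Their listing already required a high value with Sfrp2, so this count of higher members is a description and supports nothing. Porcn was lower in all 3 Sfrp2 libraries than in any vehicle library, as were 2.33% of all genes.

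Axin2 was at 4.23, 12.6 and 6.95 with Sfrp2 and at 3.89, 1.22 and 1.87 with vehicle, from 6, 20 and 17 against 5, 2 and 1 reads. Because its listing required a high value with Sfrp2, its values here are descriptions. The log2 difference was 1.39 (SE 0.665, limma unadjusted p = 0.0631, adjusted p = 1.00), and it was positive in all 16 alternatives. The Sfrp2 gene had almost equal means, 8.80 ± 2.09 and 8.78 ± 9.27 (SD, n = 3 each), with vehicle replicate 2 highest at 19.5. Ccnd1 had means of 25.5 ± 20.3 and 35.7 ± 28.1, and Ctnnb1 of 67.4 ± 38.7 and 59.99 ± 57.6. All of these overlapped between the groups except Axin2. Gsk3b was lower with Sfrp2 in means, 64.5 ± 35.5 against 124 ± 78.0, and Lrp5 likewise, 63.2 ± 23.0 against 192 ± 205, both with overlap and limma adjusted p of 1.00.

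Genes that work with the members were counted from lists, to be read against 21.3% of all genes higher and 2.65% lower at day 1, and 48.8% higher and 8.82% lower with Sfrp2 against pre-MI. Of 16 listed Wnt target genes, among which Axin2, Nkd1 and Ccnd1 are members, 8 rose and none fell at day 1, and 13 rose and 2 fell (Ccnd1 and Ccnd2) with Sfrp2 against pre-MI. Cd44, a hyaluronan receptor, was at 147 and 165 at day 1 against 15.1, 3.59 and 10.2 pre-MI, a rise by 4.06 (SE 0.578, limma adjusted p = 0.00984). Lgr5, an R-spondin receptor, was at 14.1, 13.2 and 16.8 with Sfrp2 against 0.946, 0 and 0, and at 21.0, 4.87 and 16.8 with vehicle. Lef1 was at 45.1, 21.3 and 15.5 with Sfrp2 against 0, 1.79 and 2.27, and at 17.9, 9.13 and 56.1 with vehicle. The lymphocyte markers summed to 154, 38.9 and 24.9 in the same Sfrp2 libraries and to 24.1, 38.4 and 135 with vehicle. The part of lymphocytes in the Lef1 values was not tested. Ccnd2 was at 26.8, 23.2 and 28.6 against 70.0, 66.3 and 103 pre-MI, a fall by 1.55 (SE 0.276, limma adjusted p = 0.00177). Among 8 genes for R-spondins, their receptors and Frizzled turnover 5 rose at day 1 and 8 with Sfrp2. Among 8 other extracellular modulators 2 and 5 rose. Some genes of these lists, among them Axin2, Wisp1, Tnfrsf19, Rspo2 and Rspo4, reached the 10 reads needed for listing only with Sfrp2. Their listing already required a high value with Sfrp2, so the counts of rises with Sfrp2 are descriptions and support nothing. No gene of these lists passed in the vehicle comparison with pre-MI or between Sfrp2 and vehicle.

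Of 18 destruction complex partners none passed at day 1 and 1 (Csnk1g2) fell with Sfrp2 against pre-MI. Of 16 nuclear partners of beta-catenin 1 fell at day 1 (Ctnnbip1, an inhibitor of beta-catenin), and with Sfrp2 4 rose and 4 fell. Aes, a protein related to Groucho corepressors, was at 8.45, 3.77 and 6.54 with Sfrp2 against 23.7, 48.4 and 59.1 pre-MI, a fall by 2.58 (SE 0.428, limma adjusted p = 0.00124). Of 26 genes of the beta-catenin-independent arm 4 rose and 2 fell at day 1, and 10 rose and 6 fell with Sfrp2, against the same shares of all genes (21.3% and 2.65%, then 48.8% and 8.82%). The falls included Rac1, a small GTPase, from 135, 136 and 133 to 49.998, 16.3 and 36.0 (log2 difference -2.09, SE 0.392, limma adjusted p = 0.00230). The rises included the Wnt5a receptors Ror1 and Ror2, at 4.91 to 9.42 with Sfrp2 against at most 0.946 pre-MI.

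Markers of other cells moved between the groups together with the members. The 11 endothelial markers summed to 4998 to 5376 pre-MI, 2263 and 1443 at day 1, then 938, 1911 and 176 with vehicle and 1150, 414 and 1065 with Sfrp2. Of these 11 genes 10 fell at day 1 and 11 with Sfrp2 against pre-MI, where 2.65% and 8.82% of all genes fell. Across the 6 day 12 libraries the levels of Ctnnb1 and of Fzd4 each ranked the libraries in the same order as this sum, from vehicle replicate 3 (lowest) to vehicle replicate 2 (highest). Apc, Ccnd1, Dvl2 and Gsk3b did not follow that order. Rac1, counted above in the beta-catenin-independent arm, did follow it, so the order was not particular to endothelial markers. The share of mitochondrial rRNA reads departed from it only in vehicle replicate 2 (75.8%) and Sfrp2 replicate 1 (79.1%). The cardiomyocyte sum departed from it only in vehicle replicate 1 (242) and Sfrp2 replicate 3 (184). The cardiomyocyte list (9 genes) summed to 2049 to 3349 pre-MI and 140 to 577 later, with 8 of 9 fallen at day 1 and with Sfrp2. Macrophage and monocyte markers (9) summed to 13.6 to 19.9 pre-MI and 138 to 1166 later, and 7 and 8 of them rose, where 21.3% and 48.8% of all genes did. Mesothelial markers (8) summed to 24.6 to 31.8 pre-MI and 54.2 to 217 later, and 6 and 7 rose. Of 7 smooth muscle and pericyte markers 1 fell at day 1, and 2 rose and 2 fell with Sfrp2. Of 6 lymphocyte markers 1 and 5 rose, and of 2 mast cell markers none and 1 (Cpa3). No marker passed in the other 2 comparisons. The part of these cells in the members' values was not tested.

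Gene length went with level among the members. Across the 41 genes the Spearman correlation of normalized value with exon length lay between 0.36 and 0.72 in the 11 libraries, and across 96 sensory receptor genes it was -0.22 to 0.42. Within a library these genes share depth and background, so the values are descriptive. Ctnnb1, at 5.19 exon kb, and Ccnd1, at 4.71, were among the highest members although shorter than Apc (16.1) or Lrp6 (13.7). Per exon kb Apc with Sfrp2 stood at 1.34, 0.91 and 0.93 times the background level of replicates 1, 2 and 3.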

How the data were processed

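RNA was sequenced from 11 libraries of c-Kit(+) heart cells and 1 of cardiomyocytes. Per the labels' protocols, cDNA was amplified whole-transcriptome; Trim Galore with Cutadapt left reads of 20 nt or more, STAR placed them on GRCm38, and unique hits were tallied by HTSeq and scaled by DESeq2, with listed genes reaching 10 reads somewhere. The sources used here name no versions. What the authors deposited is a signal, reads over a DESeq2 size factor for each library, and, per the file headers, their log2 fold change, a test score (statistic), and p-values. Column names give day 14 where labels give day 12, and the labels were followed. Every value was a whole number of reads times 1 step (100% within 0.001). Read totals cover listed genes only, and PCR copies were not collapsed by identifiers.

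The main test was limma 3.58.1 (trended variance) on log2(value + 1), fitted for 2 groups at a time; p-values were adjusted over all 15223 genes (Benjamini-Hochberg, threshold 0.05). This scale understates changes of low genes. Because the files hold normalized values, edgeR 4.0.16 (quasi-likelihood) and DESeq2 1.42.0 were run on recovered reads as alternatives, with R 4.3.3 and Python 3.11.15. Other alternatives were pseudocounts of 0.5 and 5, a mean filter of 10, TMM or median centring, library weights, background subtraction, a fit of all 11 libraries and each library left out. Exon lengths came from GENCODE for GRCm38 (98.9% of genes). The fits were tested on simulated data. There the fits with vehicle libraries missed most of the smaller changes put in, and the fit of vehicle against pre-MI missed most of the larger ones too. The day 1 fit also called many unchanged genes. The absence of calls with vehicle therefore does not show that a gene was unchanged. No 2 libraries of the same group agreed within sampling noise (chi-square per degree of freedom at least 4.19).

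Named with a value per library are Axin2, Sfrp2 and Ccnd1, members that passed and averaged 10 or more in one group, the 2 most abundant of each class, and from each further list up to 4 genes of smallest p. Other members named singly were the highest, lowest or exceptional of their class, and Ccnd2, Cd44 and Fzd6 were chosen after their values were seen. Members, classes and the 14 lists (6 of pathway genes, 8 of cell type markers) were chosen with earlier results of these data known.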

Additional observations from a re-analysis of the deposited data

Results flagged for a closer look

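Lrp5, Wnt5b and Fzd2 stood out in the cardiomyocyte library, which no comparison uses and which has no replicate. Lrp5 was at a normalized value of 365.4 (165 reads), above the highest pre-MI library at 89.74. Wnt5b was at 66.43 (30 reads), against at most 0.946 pre-MI. Fzd2 was at 55.36 (25 reads), with no read in any pre-MI library. These values are not divided by exon length (9.74 kb for Lrp5, 2.65 for Wnt5b and 3.66 for Fzd2), and they lie outside the 4 comparisons. Per exon kb each exceeds this library's background level (14.4) and all pre-MI libraries, Fzd2 only narrowly so for the background level. Per exon kb Wnt5b and Fzd2 stay under the 99th percentile of the sensory genes in this library (27.6), and Lrp5 exceeds it. Day 12 vehicle replicate 3, a library of similar depth (200641 reads, against 190259), held Lrp5 at 424, Wnt5b at 7.48 and Fzd2 at 5.61.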

How the results depend on the processing

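The count of members called depended on the processing. Shares of all genes are not given for the alternatives below, so these counts describe the members only. At day 1 against pre-MI it was 11, and 6 with edgeR, 2 with DESeq2, 3 when genes averaging under 10 were left out, 1 in a fit of all 11 libraries, 4 with background subtracted, and 8 to 11 when a library was left out. With vehicle against pre-MI it was 0, and 6 with edgeR, 2 with DESeq2, 15 in a fit of all 11 libraries, 30 with library weights, and 0 to 19 when a library was left out. With Sfrp2 against pre-MI it was 30, and 19 with DESeq2, 6 when genes averaging under 10 were left out (10 members tested), 17 after median centring, 18 with background subtracted, and 16 to 28 when a library was left out. Between Sfrp2 and vehicle it was 0, and 5 with library weights. Members above background numbered 4, 1 and 5 at day 1, with vehicle and with Sfrp2; against the median of the sensory genes they numbered 26, 29 and 34, without length correction 7, 5 and 16, and with a library left out 4 to 13, 1 to 9 and 5 to 7. The highest of these counts came without day 1 replicate 2 and without vehicle replicate 3. The cause of these shifts was not tested, except that a filter or a left-out library tests fewer genes or samples.

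Between Sfrp2 and vehicle the Sfrp2 gene changed sign, from a log2 difference of 0.39 to -0.32 with edgeR and -0.057 with DESeq2, and it ranged from -0.030 (without vehicle replicate 1) to 1.13 when a library was left out. Ccnd1, at -0.50, ranged from -1.13 to 0.20 in the same way, and was positive without vehicle replicate 2 or Sfrp2 replicate 2. Replicate numbers did not pair the libraries: deviations of same-numbered libraries correlated at -0.04 to 0.02 against pre-MI and at -0.14, -0.63 and -0.03 between Sfrp2 and vehicle. A fit with the replicate block called 0, 3, 34 and 0 members in the 4 comparisons. Libraries of few non-mitochondrial reads (97858 to 618599) limit members under about 10 in value to a handful of reads.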
